A study of Homo sapiens with 4 samples.

Results

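NRF2, the product of NFE2L2, is a transcription factor that switches on genes against oxidative and electrophilic stress. In unstressed cells KEAP1 holds NRF2 and passes it to a ubiquitin ligase for degradation. When NRF2 escapes, it pairs with small MAF proteins at antioxidant response elements and raises enzymes that make glutathione, reduce thioredoxin and peroxiredoxin, detoxify quinones and break down heme. The pathway is active in many tumours and cancer cell lines. The genes described here are NFE2L2, KEAP1 and 8 target genes, namely GCLC, GCLM, TXN, TXNRD1, SRXN1, PRDX1, NQO1 and HMOX1. They were chosen by symbol, and all 10 were found among the 14431 genes listed.

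RNA was sequenced from HGC27, a human gastric cancer cell line, in 2 control libraries (genotype WT) and 2 libraries of cells with AARS1 knocked down by siRNA (siAARS1). AARS1 is the cytosolic alanyl-tRNA synthetase, which the study follows as a lactyltransferase. Cells of both groups were kept alike, in glucose-free DMEM to which 25 mM lactate was added, so that no library was without lactate. The labels put this at 24 h. The text of the study differs on the duration, and the time under lactate is uncertain. Neither the number nor the sequence of the siRNAs is named in the labels. No source says whether the replicates came from separate cultures, so p-values measure the spread between these libraries only.

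Each library had 30653210 to 33522573 reads over the listed genes, and 1 read was worth 0.0293 to 0.0324 CPM, the reads of a gene relative to those of its library. Reads are not independent molecules, so this depth covers counting error only. AARS1 itself (listed as AARS) was at 428 and 417 CPM in the controls against 292 and 298 CPM in siAARS1 (log2 fold change -0.52), below both controls in both libraries. Its siAARS1 mean was 69.8% of the control mean, and 11.9% of the genes tested had a lower log2 fold change. Of 13 gastric epithelial markers only CDH1, KRT8 and VIL1 were among the genes listed, while EPCAM, KRT18, KRT19 and CLDN18 were not. The sum of those 3 was 27.7 to 27.8 CPM in control and 6.62 to 8.48 CPM in siAARS1. Of 6 mesenchymal markers 5 were listed, with 5264 and 5205 CPM in sum for control and 4888 and 4779 CPM for siAARS1, nearly all of it VIM. All 5 fibroblast markers were listed, with a sum of 6356 and 6551 CPM in the controls against 4597 and 4491 CPM in siAARS1. Of 5 immune markers 2 were listed, with sums of 5.31 and 5.07 CPM against 3.92 and 4.301 CPM, and of 4 endothelial markers none. The epithelial, mesenchymal, fibroblast and immune sums were all lower in siAARS1 without overlap, although ZEB1 (6.16 and 6.84 against 50.03 and 52.3 CPM), ZEB2 (13.3 and 12.8 against 38.6 and 41.2 CPM) and DCN (239 and 250.3 against 258.5 and 270.1 CPM) were higher. The part of these markers in the results below was not tested. In bulk RNA, fewer cells of a type and less RNA per cell cannot be told apart.

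The antioxidant response element is the DNA sequence through which NRF2 acts, so promoters were searched for its core, TGACNNNGC, on both strands. RefSeq promoter windows of 300 bases (250 before and 50 after a transcription start, GRCh38.p14) were at hand for 8 of the 10 genes, and not for HMOX1 and PRDX1. The core was found for 3 of these 8 genes, GCLM, TXNRD1 and KEAP1, in 16.1% of the 27305 genes with a window, and in 19.3% of the 9725 genes of the deposited table that had one. The sites are shown because they place the letters of the element beside genes whose RNA is measured here. The core is in capitals, each sequence is read in the direction of the core, and TXNRD1 and KEAP1 each have several cores.
GCLM, chr1:93909448-93909472, plus strand: gaagacaaTGACTAAGCagaaatcg
TXNRD1, chr12:104215672-104215696, plus strand: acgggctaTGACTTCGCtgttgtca
TXNRD1, chr12:104215763-104215787, minus strand: gtgggaacTGACGGAGCcgaaggac
TXNRD1, chr12:104286922-104286946, minus strand: agtcagaaTGACAAAGCagaaatcc
KEAP1, chr19:10502809-10502833, minus strand: ttttattgTGACACGGCgggcgccc
KEAP1, chr19:10502786-10502810, plus strand: ggtcaccaTGACTAAGCagagccgg

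In GCLM the core lay at positions -34 to -26 from the start, against the direction of the gene. The TXNRD1 cores belonged to 2 separate starts of the gene, and 1 of them reached the first transcribed base. Of the other pathway genes described below 83 had a window, and 25.3% of those held the core. For NFE2L2, GCLC, TXN, SRXN1 and NQO1 these letters were not in the window, which says nothing of elements farther away. None of the 3 genes with a core passed the threshold in the comparison that follows, on the deposited scale.

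The main comparison asked how the RNA of these genes differed between siAARS1 and control cells under lactate. NFE2L2 more than doubled, with 2.48 times the control mean, while NQO1, HMOX1, SRXN1 and TXN were lower and GCLC was slightly higher. KEAP1, GCLM, TXNRD1 and PRDX1 did not pass the threshold. Thus 6 of the 10 genes were called, 2 higher and 4 lower (limma on log2(CPM + 1), Benjamini-Hochberg adjusted p under 0.05). Among all 14199 genes tested 70.7% were called, 32.6% higher and 38% lower, so the share of called genes in this group was no larger than the background. The median log2 fold change was -0.01 over the 10 genes and -0.05 over all genes tested. The groups did not overlap in any of the 10 genes, and nor did they in 85.1% of all genes tested.

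**Figure D1:**
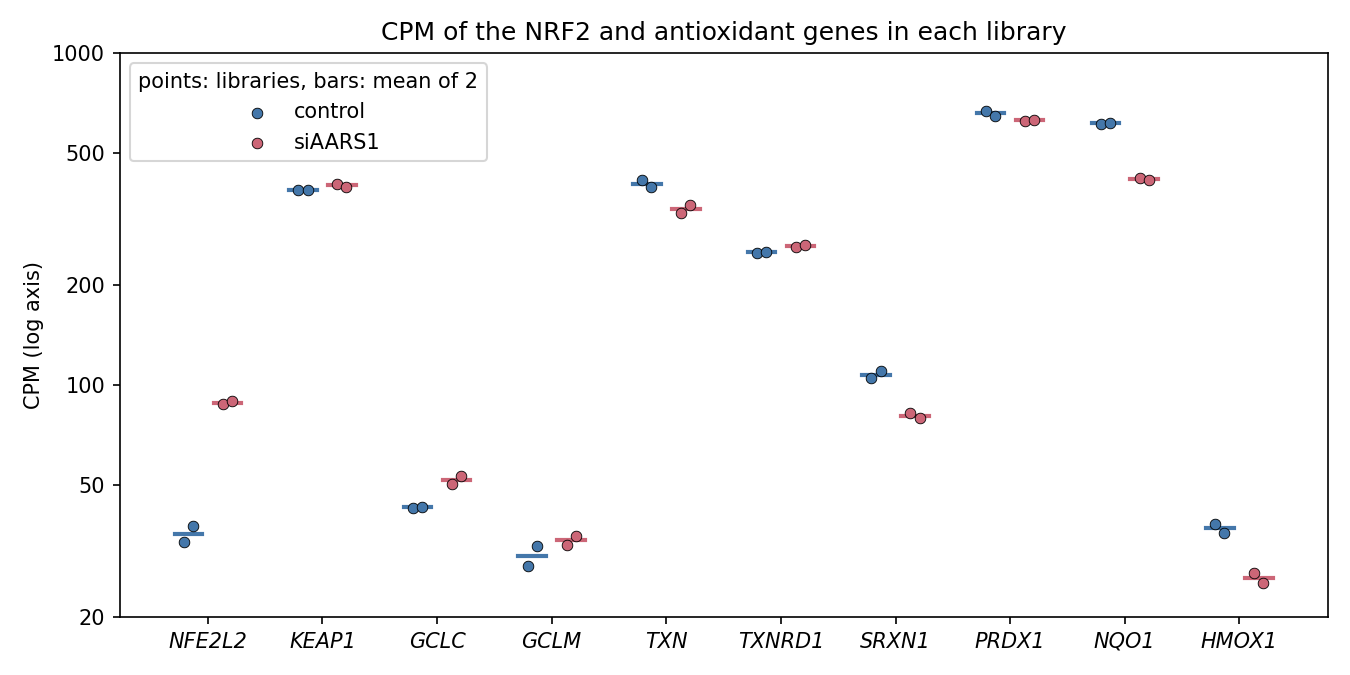
CPM (log axis) of each of the 10 genes in the 2 control libraries (blue) and the 2 siAARS1 libraries (red), with bars at the mean of 2. NFE2L2 stands higher in siAARS1 (87.5 and 89.2 CPM against 33.7 and 37.5), while NQO1, HMOX1, SRXN1 and TXN stand lower.

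NFE2L2 (ENSG00000116044, chromosome 2, 177227595 to 177392697, GRCh38) encodes NRF2 itself. Its values were 33.7 and 37.5 CPM (1149 and 1190 reads) for the controls, and 87.5 and 89.2 CPM (2702 and 2966 reads) for siAARS1. Both siAARS1 libraries lay far above both controls, and the gap was many times the difference between replicates. The mean went from 35.6 ± 2.69 to 88.4 ± 1.22 CPM (SD, n = 2), which is 1.29 on the log2 scale (SE 0.0558, limma adjusted p = 7.52e-15). It was the only one of the 10 called at least 2-fold, as were 12.3% of all genes tested (10.6% higher and 1.63% lower), and 7.25% of the genes tested had a higher log2 fold change. On the other strand AGPS, which shares exonic bases with the NFE2L2 gene model, rose from 49.7 to 90.6 CPM. Of the NFE2L2 transcript used here 6.7% is shared with exons of other genes, and without a stated use of strand such reads cannot be told apart.

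KEAP1 (ENSG00000079999, chromosome 19, 10486120 to 10503741), the adaptor that hands NRF2 over for degradation, was measured at 388 and 386 CPM in the controls against 404 and 395 CPM in siAARS1. The siAARS1 libraries were both slightly higher, by less than the test could call (log2 fold change 0.046, SE 0.035, limma adjusted p = 0.245). Its direction depended on the processing. It was -0.17 after median scaling, which gives every library the same median, and 0.39 after a correction for the GC content and length of transcripts, both past the threshold.

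The balance of the regulators, in RNA only, can be read within a library, where the scaling of the library cancels. The KEAP1 CPM was 11.5 and 10.3 times the NFE2L2 CPM in control, and 4.62 and 4.43 times in siAARS1. The ratio of NFE2L2 to KEAP1 was thus 2.40 times as high in siAARS1, with no overlap of the groups. An exact permutation test of 2 against 2 libraries cannot give a p below 0.333 (two-sided), so no p is given for the ratios. The transcripts of NFE2L2 and KEAP1 also differ in GC content, at 45.6% and 60.3%, which moved with the fold changes of all genes as described below. The log2 fold changes of NFE2L2 and KEAP1 were 1.16 and 0.39 after the correction for transcripts. They were close, at 0.49 and 0.37, after a like correction for coding sequences, so the size of the ratio change depended on the correction.

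Glutathione synthesis begins with glutamate-cysteine ligase, whose catalytic and modifier subunits are GCLC and GCLM. GCLC (ENSG00000001084, chromosome 6, 53497341 to 53616970) stood at 42.6 and 42.9 CPM in the control libraries and reached 50.4 and 53.0 CPM with siAARS1. The difference exceeded the spread between replicates (log2 fold change 0.27, SE 0.0548, limma adjusted p = 0.000198). That call was lost with median scaling (0.047, limma adjusted p = 0.442) and with the correction for transcripts, which gave -0.061, and it turned with that for coding sequences (-0.33). GCLM (ENSG00000023909, chromosome 1, 93885205 to 93909456) gave 28.4 and 32.6 CPM for control, and for siAARS1 33.0 and 35.1 CPM. The higher control library nearly reached the lower siAARS1 library, and the gene was just short of the threshold (log2 fold change 0.16, SE 0.0699, limma adjusted p = 0.0532). It passed without control replicate 2 (0.25, limma adjusted p = 0.00778), and was 0.059 without control replicate 1. After the correction for transcripts it turned to -1.05, past the threshold (limma adjusted p = 2.95e-11). The CPM of GCLC was 1.5 and 1.32 times that of GCLM in control and 1.53 and 1.51 times in siAARS1, groups that came close without overlapping.

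The thioredoxin system reduces disulfides with electrons from NADPH. TXN, thioredoxin itself (ENSG00000136810, chromosome 9, 110243811 to 110256640), came to 413 and 395 CPM in the controls and 331 and 348 CPM in siAARS1 cells. Both siAARS1 libraries were lower, by more than the replicates differed (log2 fold change -0.25, SE 0.038, limma adjusted p = 5.42e-06). The annotation holds 7 pseudogenes named after TXN, so its count is uncertain where reads were split. TXNRD1 (ENSG00000198431, chromosome 12, 104215779 to 104350305), the cytosolic reductase that recharges thioredoxin, was found at 249.5 and 251.7 CPM without knockdown, and at 259.9 and 264 CPM with it. Its difference did not pass (log2 fold change 0.064, limma adjusted p = 0.123), and it was -0.16 after median scaling and -0.37 after the correction for transcripts, both past the threshold. Within a library the ratio of TXN to TXNRD1 CPM was 1.66 and 1.57 in control and 1.27 and 1.32 in siAARS1, with no overlap. TXN and TXNRD1 were at -0.30 and -0.37 after the correction for transcripts, and at -0.31 and -0.39 after that for coding sequences. TXN thus fell less than TXNRD1 there, so the lower ratio did not hold under these corrections.

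Peroxiredoxins remove peroxides and are rescued by sulfiredoxin when overoxidized. SRXN1, sulfiredoxin (ENSG00000271303, chromosome 20, 646615 to 653370), read 105 and 109.9 CPM for control but 82.2 and 79.4 CPM for siAARS1. Both siAARS1 values lay below both controls (log2 fold change -0.41, SE 0.0456, limma adjusted p = 7.21e-08). The value was -0.17 after the correction for transcripts, and -0.022 with no call after a correction for coding sequences (limma adjusted p = 0.621). Of its transcript 85.0% is shared with a protein-coding gene model on the same strand, AL121758.1, that is not among the genes listed, so the reads of both cannot be told apart. PRDX1 (ENSG00000117450, chromosome 1, 45511036 to 45523047), a cytosolic peroxiredoxin, was the most abundant per length, with 669 and 648 CPM in control libraries and 624 and 628 CPM in siAARS1. It was not called (log2 fold change -0.072, limma adjusted p = 0.0668), but passed in opposite directions under several alternatives. Among these it was -0.29 after median scaling, -0.13 after the correction for coding sequences and 0.15 after the correction for transcripts. MMACHC overlaps 30.7% of its transcript on the other strand, with means of 33.2 CPM in control and 31.3 CPM in siAARS1. The ratio of PRDX1 to SRXN1 CPM was 6.38 and 5.90 in control and 7.60 and 7.92 in siAARS1, with no overlap. The log2 fold changes of PRDX1 and SRXN1 were 0.15 and -0.17 after the correction for transcripts. They were -0.13 and -0.022 after that for coding sequences, where their order turned.

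The quinone and heme enzymes are the most widely used readouts of NRF2. NQO1 (ENSG00000181019, chromosome 16, 69706996 to 69726951) reduces quinones in a single step that avoids radicals. The controls held 611 and 617 CPM of it and the siAARS1 libraries 419 and 413 CPM, or 614 ± 4.60 and 416 ± 4.42 CPM (mean ± SD, n = 2). The gap between the groups was far wider than that between replicates, at -0.56 in log2 terms (SE 0.0343, limma adjusted p = 3.35e-12). An antisense gene model shares 19.7% of its transcript. HMOX1 (ENSG00000100292, chromosome 22, 35380361 to 35394214), the inducible heme oxygenase, had control values of 38.2 and 35.7 CPM and siAARS1 values of 27.2 and 25.3 CPM. It fell by 0.48 on the log2 scale (SE 0.066, limma adjusted p = 1.51e-06), beyond the spread of the replicates, and by 0.16 and 0.14 after the corrections for transcripts and coding sequences. NQO1 was at -0.66 and -0.54 under these corrections, larger falls than those of HMOX1. The ratio of NQO1 to HMOX1 CPM was 16 and 17.3 in control and 15.4 and 16.3 in siAARS1, so that without correction it overlapped between the groups. The ratio of NQO1 to NFE2L2 CPM, in contrast, was 18.1 and 16.5 in control and 4.79 and 4.63 in siAARS1.

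CPM divided by the length of the transcript lets the genes be ordered. In control PRDX1 was the highest with a mean of 534 CPM per kb, followed by TXN (465), NQO1 (211), KEAP1 (131), TXNRD1 (63.8), SRXN1 (39.8), HMOX1 (20.3), NFE2L2 (12.5), GCLC (11.2) and GCLM (6.28). Neighbours in this order did not overlap between their libraries. In siAARS1 NFE2L2 stood sixth, at 30.7 and 31.3 CPM per kb, above SRXN1 at 30.4 and 29.4 CPM per kb. NQO1 came down to 144 and 142 CPM per kb, next to KEAP1 at 137 and 134 CPM per kb. HMOX1 (14.9 and 13.9 CPM per kb) and GCLC (13.2 and 13.9 CPM per kb) then met within their spread.

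**Figure D2:**
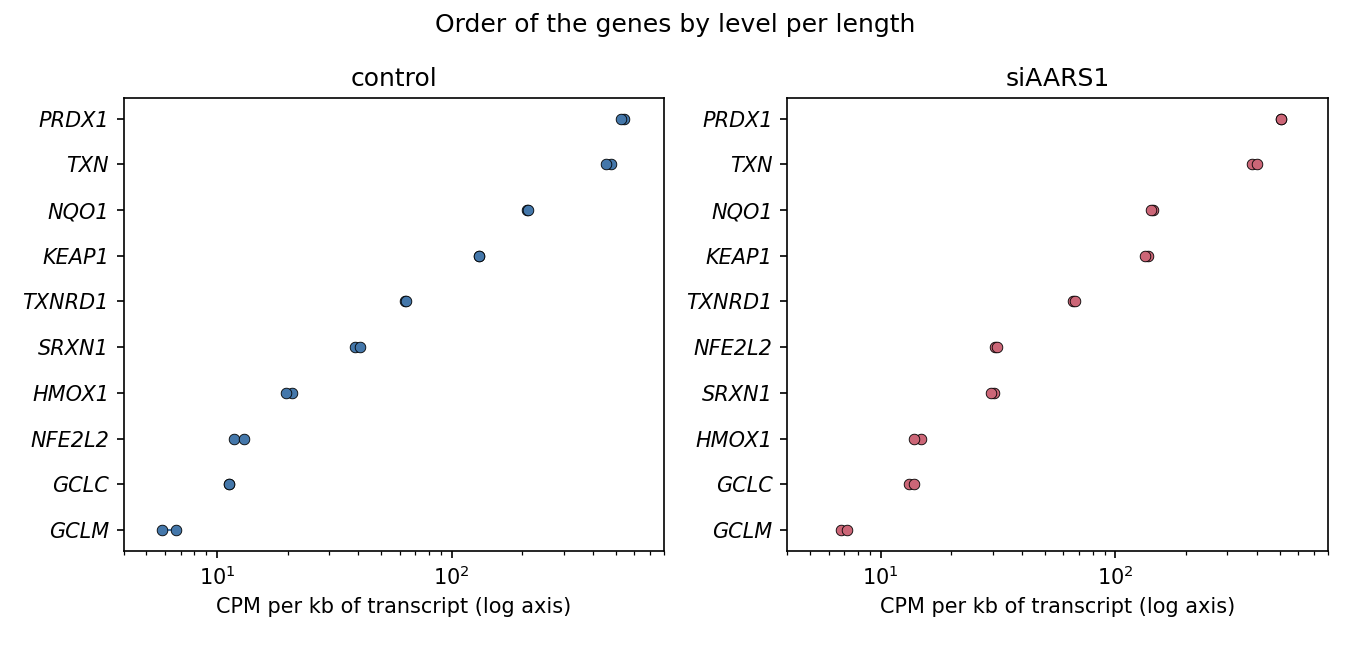
Level of each gene in CPM per kb of transcript (log axis) in the 2 libraries of each group, ordered within the group. NFE2L2 stands eighth of 10 in control, at 12.5 CPM per kb, and sixth in siAARS1, at 31.0 CPM per kb.

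Over all genes the differences between the groups moved with the GC content of the transcripts (rank correlation -0.654 across 13819 genes). Genes between 27.9% and 41.5% GC had a median log2 fold change of 0.77, and genes between 59.2% and 75.6% GC one of -0.30. The part of GC content in the results was not tested beyond the corrections given here. Among the 10 genes GC content ran from 37.3% in GCLM to 60.3% in KEAP1. The whole transcripts of NFE2L2 and NQO1 were alike in GC content (45.6% and 46.0%) and length (2853 and 2912 bases), but their coding sequences were not, with 43.1% and 48.8% GC and 1815 and 822 bases. After the smooth trend with transcript GC content and length was taken out of each library, NFE2L2 was at 1.16 and NQO1 at -0.66, both past the threshold (limma adjusted p = 4.96e-13 and 4.26e-13). GCLM turned to -1.05 and PRDX1 to 0.15, both past the threshold. SRXN1 was at -0.17 and TXN at -0.30, and both were still called. With this correction 9 of the 10 genes were called, 3 higher and 6 lower, against 66.2% of all genes (32.9% higher and 33.3% lower).

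A second correction, chosen after the data were seen, used the GC content and length of the coding sequence alone. NFE2L2 was then at 0.49 (limma adjusted p = 9.24e-10) and NQO1 at -0.54 (limma adjusted p = 5.33e-15). The size of the NFE2L2 difference thus depended on the correction, while its direction did not. KEAP1 was at 0.37, close to its value under the first correction, and TXNRD1 was at -0.39. GCLM was at 0.006 and SRXN1 at -0.022, neither called. GCLC, at -0.33, had turned and passed the threshold. In that fit 2 of the 10 genes were higher and 6 lower, beside 66.9% of all genes called (33.3% higher and 33.6% lower). Median scaling, with 80.8% of all genes called (23.3% higher and 57.6% lower), gave 1 higher and 7 lower of the 10. The recovered reads in edgeR with TMM, with 69.1% called (34.7% higher and 34.3% lower), gave 5 higher and 4 lower. NFE2L2 higher, and NQO1, HMOX1 and TXN lower, were the calls among the 10 genes that held under every alternative run.

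**Figure D3:**
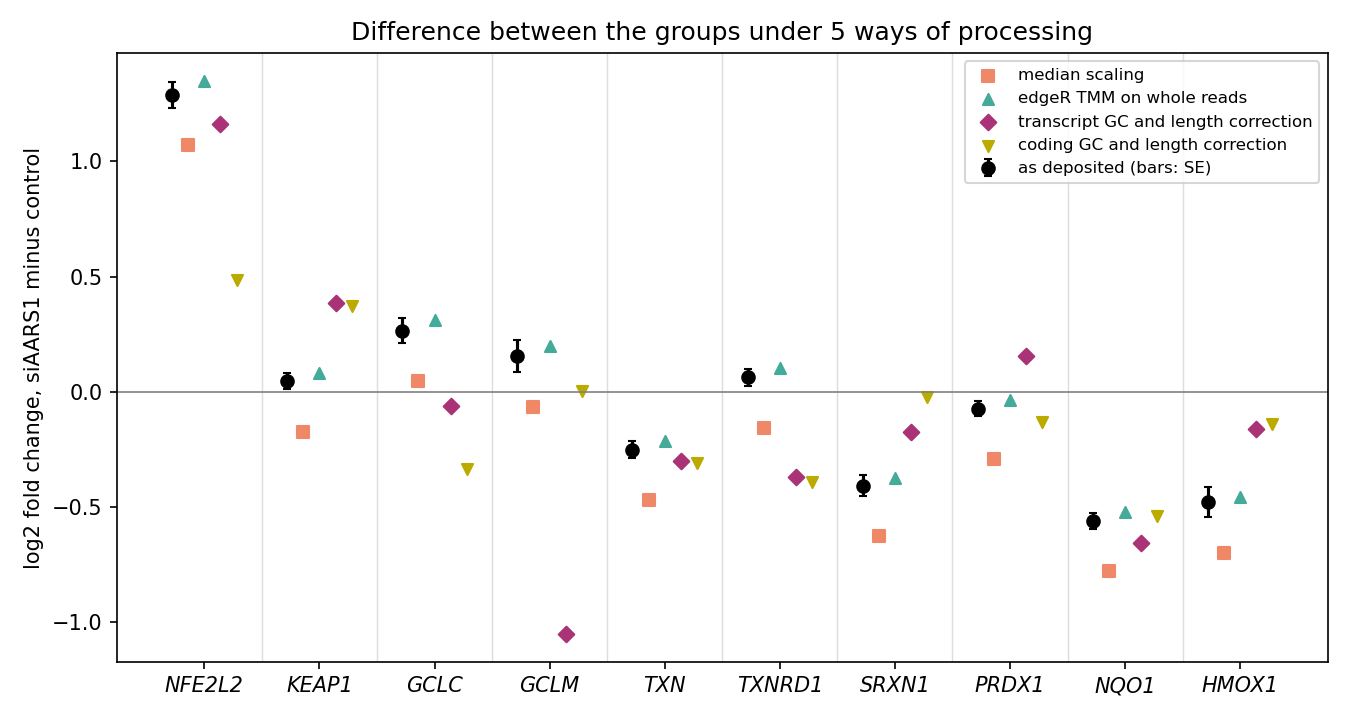
log2 fold change (siAARS1 minus control) of the 10 genes on the deposited scale (black, bars are SE) and under 4 alternatives. NFE2L2 is above 0 under all 5 and NQO1, HMOX1, SRXN1 and TXN are below 0 under all 5, while GCLM runs from -1.05 to 0.20.

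Other regulators of NRF2 were followed by a list of 13 genes, of which 5 were higher, 6 lower and 2 not called, or 84.6% called beside 70.7% of all genes tested. The balance turned with the processing, to 7 higher and 2 lower after the correction for transcripts, beside 32.9% and 33.3% of all genes. It was 6 and 4 after that for coding sequences, beside 33.3% and 33.6%, and 4 and 8 after median scaling, beside 23.3% and 57.6%. BACH1, a repressor that competes with NRF2 at the same elements, rose from 7.33 to 30.9 CPM, the largest rise of the list (log2 fold change 1.94, SE 0.0853, limma adjusted p = 1.01e-14). It was 0.76 after the correction for transcripts and 1.13 after that for coding sequences. CAND1 and CUL3, a regulator and the scaffold of the ligase that KEAP1 serves, rose by 1.74 and 0.90. CUL3 was -0.54 after the correction for transcripts and -0.66 after that for coding sequences. CAND1 was 0.31 after the former and -0.27 after the latter. The small MAF partners were lower, at -0.33 for MAFK (the largest fall among genes with at least 5 CPM), -0.16 for MAFG and -0.87 for MAFF, which had 2.71 and 1.03 CPM. MAFK turned to 0.041 and MAFG to 0.13 after the correction for transcripts. SQSTM1, which draws KEAP1 into autophagy, fell from 297 to 238 CPM (log2 fold change -0.32), and was -0.028 after the correction for transcripts and 0.017 after that for coding sequences, with no call. NFE2L1, a relative of NFE2L2, was at -0.17, and turned to 0.082 and 0.067 under these corrections.

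The other target and antioxidant genes were counted over 6 further lists. Together with the regulators, 93 of 102 genes fixed were listed and tested, and 14 were higher, 62 lower and 17 not called. That is 81.7% called, with a median log2 fold change of -0.28, beside 70.7% and -0.05 for all genes tested. Median scaling shifted the median of all genes by -0.22, to -0.27, and that of these 93 genes to -0.50. After the correction for transcripts the medians were -0.17 for these genes and -0.01 for all genes. Of the 92 genes with a GC value (all but TXNIP) 16 were then higher and 53 lower, beside 32.9% and 33.3% of all genes. After the correction for coding sequences 16 of them were higher and 55 lower, beside 33.3% and 33.6% of all genes. The medians were then -0.18 for these genes and -0.005 for all genes. The lists were chosen with earlier results of these data known, and no test of a list was run.

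**Figure D4:**
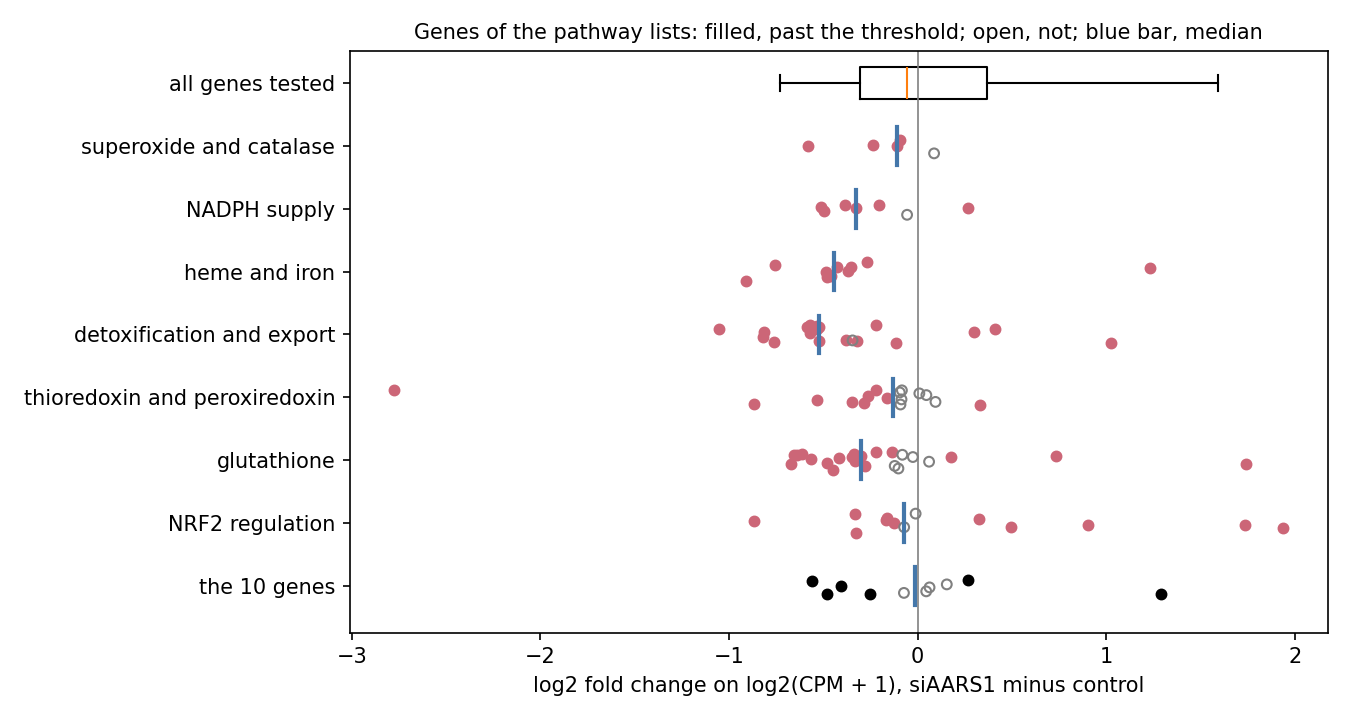
log2 fold change (siAARS1 minus control) of the 10 genes and of the 7 other lists, filled where past the threshold and open where not, with the median as a blue bar; the box shows all genes tested (5th to 95th percentile). On the deposited scale, shown here, the medians of heme and iron (-0.44) and detoxification and export (-0.52) lie lowest. After the correction for transcripts (not shown) detoxification and export (-0.27) was lowest, and superoxide and catalase (-0.24) lay below heme and iron (-0.22).

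In the glutathione list 3 of 23 genes were higher, 15 lower and 5 not called, or 78.3% called beside 70.7% of all genes tested. SLC7A11, the cystine carrier that feeds glutathione synthesis, rose from 26.3 to 90.5 CPM (log2 fold change 1.74), with 0.079 and no call after the correction for transcripts and 1.32 after that for coding sequences. GSTM3, a glutathione transferase, fell from 104 to 65.1 CPM (log2 fold change -0.67), and was -0.87 and -0.61 under these corrections. It has close paralogs, so its count is uncertain where reads were split. GSS and GSR, which complete and regenerate glutathione, were at -0.57 and -0.33. GPX4, the peroxidase of membrane lipids, was at -0.45. The corrections for transcripts and coding sequences, in that order, gave -0.32 and -0.32 for GSS, -0.26 and -0.18 for GSR and -0.13 and -0.12 for GPX4, all still called.

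In the thioredoxin and peroxiredoxin list 1 of 16 genes was higher, 8 lower and 7 not called. That is 56.2% called, below the 70.7% of all genes tested, but the counts depended on the processing. After the correction for transcripts 4 of 15 genes were higher and 8 lower, where 66.2% of all genes were called. The correction for coding sequences gave 3 higher and 5 lower of 15, beside 66.9% of all genes called. Median scaling gave 1 higher and 14 lower of the 16, beside 80.8%. TXNIP, which binds and inhibits thioredoxin, fell from 74.2 to 10.00 CPM (log2 fold change -2.77, SE 0.0673, limma adjusted p = 5.02e-19). No GC content or length was at hand for TXNIP, so it was in neither correction. PRDX3, the mitochondrial peroxiredoxin, was the gene called higher on the deposited scale, at 137 and 173 CPM (log2 fold change 0.33). It was -0.008 with no call after the correction for transcripts, but 0.33 and still called after that for coding sequences.

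Detoxification and export had 3 of 19 genes higher, 15 lower and 1 not called, or 94.7% called beside 70.7% of all genes tested. The largest fall among genes with at least 5 CPM was in ALDH3A1, an aldehyde dehydrogenase, from 158 to 89.0 CPM (log2 fold change -0.82), with -0.47 and -0.50 under the corrections in the same order. EPHX1, TRIM16L and CBR3 were at -0.81, -0.76 and -0.57, and at -0.51, -0.55 and -0.25 after the correction for transcripts. ABCC4, an exporter of conjugates, rose from 21.4 to 44.7 CPM (log2 fold change 1.03), and was 0.31 after the correction for transcripts and -0.26 after that for coding sequences. OSGIN1, an oxidative stress-induced growth inhibitor, was at -0.52. It was at -0.17 with no call after the correction for transcripts, and at -0.18 and still called after that for coding sequences.

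All 10 heme and iron genes were called, 1 higher and 9 lower, where 70.7% of all genes tested were. After the correction for transcripts 1 was higher and 7 were lower, beside 32.9% and 33.3% of all genes. That for coding sequences gave 1 higher and 9 lower, beside 33.3% and 33.6% of all genes. TFRC, the receptor that imports transferrin-bound iron, rose from 67.8 to 161 CPM (log2 fold change 1.23), and was 0.43 and 0.39 under the corrections. SLC48A1, a heme carrier, fell from 38.1 to 19.8 CPM (log2 fold change -0.91), and was -0.63 and -0.57. The biliverdin reductases BLVRA and BLVRB, which act after heme oxygenase, were at -0.49 and -0.76, and at -0.28 and -0.44 after the correction for transcripts. The ferritin chains FTH1 and FTL, which store iron, were at -0.27 and -0.35. They were at -0.086 and -0.032 after the correction for transcripts, where FTL was not called. After that for coding sequences both were called, at -0.17 and -0.076.

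Among 7 genes of NADPH supply 1 was higher, 5 lower and 1 not called, or 85.7% called beside 70.7% of all genes tested. PGLS, a lactonase of the pentose phosphate pathway, fell from 170 to 119 CPM (log2 fold change -0.51), and was -0.17 and -0.12 under the corrections. ME1, malic enzyme, rose from 75.8 to 91.6 CPM (log2 fold change 0.27), but was 0.0503 after median scaling and -0.55 and -0.46 under the corrections. Of 5 superoxide and catalase genes 4 were lower and 1 was not called, or 80% called beside the same 70.7%. CCS, the copper chaperone of SOD1, was the lowest on the deposited scale, at 33.4 and 22 CPM (log2 fold change -0.58). It was -0.24 and -0.23 under the corrections. All 5 genes were lower after the correction for transcripts, where 33.3% of all genes were. After that for coding sequences 1 was higher and 2 were lower, beside 33.3% and 33.6% of all genes. The median of the list was then 0.026.

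The genes whose 4 libraries were most like those of NFE2L2 were SYCP2, SPG11 and KIAA1715. Likeness was the distance between log2(CPM + 1) values centred on each gene's mean, and it was 0.0292, 0.0412 and 0.0423. SYCP2 was at a low level (0.169 and 1.84 CPM), and its likeness rests on the pseudocount of 1, since its log2 fold change was 2.88 with a pseudocount of 0.1 and 3.47 in edgeR with TMM, where NFE2L2 was at 1.31 and 1.35. SPG11 (27.3 and 67.8 CPM) and KIAA1715 (39.1 and 99.4 CPM) had many more reads. The measure rests on 4 libraries in 2 groups. After the correction for coding sequences SYCP2 (-0.068) and SPG11 (-0.56) were below 0, and so was KIAA1715 (-0.14) after the correction for transcripts, where NFE2L2 was not in either case.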

How the data were processed

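RNA-seq of 4 HGC27 libraries was deposited by the authors as 1 table of CPM values for 14431 genes, each over 1 CPM in at least 1 library. The submitters' processing notes name RSEM 1.3.3 and hg38; the aligner, annotation and strand setting are not given in the sources used here. Per-library values were whole multiples of 1 read (within 0.02 reads) for 100% of values, and the totals used for scaling exceeded the reads of listed genes by 0.749% to 1.89%. Depth gives a limit of 0.088 to 0.0971 CPM for 0 reads, for counting error only.

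The main test was limma 3.58.1 (R 4.3.3, eBayes with trend) on log2(CPM + 1) with group as the only term, where either group averaged 1 CPM or more. The pseudocount of 1 understates changes of low genes. P-values were adjusted by Benjamini-Hochberg across the 14199 genes of the fit and called under 0.05. Named genes were the 10 genes, AARS1, 8 textbook genes of the pathway (1 of them is not reported here), the largest called rise and fall of each list with at least 5 CPM and no overlap, and the 3 genes nearest to NFE2L2; CUL3, CAND1, MAFF, GSS, GSR, GPX4, EPHX1, TRIM16L, CBR3, OSGIN1, BLVRA, BLVRB, FTH1, AGPS and MMACHC were added after their values were seen. The genes and lists were chosen with earlier results of these data known.

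GC content, length and coordinates are of the principal GENCODE v29 transcript (GRCh38), for 97.2% of genes. Corrections used mgcv 1.9.3 and also take out true change that follows these properties. Alternatives on the recovered counts used edgeR 4.0.16 and DESeq2 1.42.0. The fits were tested on simulated data. The numbers of replicates are shared by the groups, but no source says that they mark pairs.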

Additional observations from a re-analysis of the deposited data

How the results depend on the processing

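NFE2L2 stayed higher, and NQO1, HMOX1, TXN and AARS1 lower, all past the threshold, under all 17 alternatives. NFE2L2 ranged from 0.49 (coding sequence correction) to 1.36, and NQO1 from -0.78 (median scaling) to -0.51. The 10 genes had 6 to 9 calls in all fits. The share of all genes called was lowest in DESeq2 (8355 of 14199) and highest after median scaling (11479 of 14199). Genes called at least 2-fold went from 1741 to 756 when transcript GC content and length were corrected for (756 also with the replicate block), and to 392 with the coding sequence correction, which was added after the data were seen. The split of all called genes was 4633 higher and 5399 lower, and 3306 and 8173 after median scaling, which moves every gene of a library alike, 3984 and 6776 after quantile normalization, and 4932 and 4874 in edgeR with TMM.

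Reversed values after median scaling were -0.17 for KEAP1, -0.065 for GCLM and -0.16 for TXNRD1, and GCLM was -0.035 after quantile normalization. With the GC content and length correction, and the same with the replicate block, they were -0.061 for GCLC, -1.05 for GCLM, -0.37 for TXNRD1, 0.15 for PRDX1, 0.13 for MAFG, 0.082 for NFE2L1, 0.0405 for MAFK, -0.008 for PRDX3, -0.55 for ME1 and -0.14 for KIAA1715. With the coding sequence correction they were -0.33 for GCLC, -0.39 for TXNRD1, 0.017 for SQSTM1, 0.21 for MAFG, 0.067 for NFE2L1, 0.026 for MAFK, -0.26 for ABCC4, -0.46 for ME1, -0.068 for SYCP2 and -0.56 for SPG11. The cause was not tested.

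KEAP1 (0.084 and 0.098) and TXNRD1 (0.10 and 0.12) passed in edgeR with TMM, which called 9806 genes, and in DESeq2. GCLM (0.20) passed in edgeR with TMM, and at a mean of at least 5 CPM. PRDX1 passed after quantile normalization (-0.082), in edgeR with library size only (-0.087) and with the coding sequence correction (-0.13). SRXN1 lost its call only with the coding sequence correction (-0.022). With the replicate block 10389 genes were called, and of the 10 genes GCLM (0.16) then also passed. The correlation between libraries of the same number, in their deviations from the group means, was 0.118 across genes, with 2 pairs only. Leaving out 1 library gave 8905 to 9326 genes called, 1698 to 1869 at least 2-fold, 6 or 7 of the 10 genes and 70 to 74 of the other pathway genes. A lone library was then assumed to vary like the other group.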
